A study of Homo sapiens with 9 samples.

Results

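The 10 genes described here encode RNA-binding proteins that set how long messenger RNAs with short regulatory elements in their 3′ untranslated region (3′ UTR) survive. They are ZFP36, ZFP36L1 and ZFP36L2, ZC3H12A and ZC3H12C of the Regnase family, RC3H1 and RC3H2 (Roquin-1 and Roquin-2), and ELAVL1, KHSRP and HNRNPD. They were taken from the count table by gene symbol, each gene identifier once. All 10 symbols were found, each with 1 identifier, among 62710 distinct identifiers, and all 10 passed the filter on low counts that left 17412 genes for testing.

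RNA came from HT-29, a human colon adenocarcinoma cell line, in its wild-type form and with no genetic change in any group. The 3 groups held 3 libraries each: cells left non-stimulated, cells given flagellin at 500 ng/mL, and cells given ADP-L-heptose (ADP-heptose below) at 500 ng/mL, with stimulation for 2.5 h according to the methods of the study. Flagellin is the protein of the bacterial flagellum and is sensed by TLR5, whereas ADP-heptose is a sugar nucleotide from the lipopolysaccharide pathway of Gram-negative bacteria and is sensed by the kinase ALPK1. The study describes the libraries of a group as coming from 3 separate experiments, so the spread between them is that between experiments. Both stimuli were compared with one set of non-stimulated libraries, so those comparisons share their controls.

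AU-rich elements are stretches of A and U in the 3′ UTR of many cytokine and growth factor transcripts. ZFP36 proteins bind the element UAUUUAU through a pair of zinc fingers and recruit the CCR4-NOT complex, which shortens the poly(A) tail. Regnase-1, the product of ZC3H12A, is an endonuclease that cuts stem-loops in inflammatory transcripts, and the Roquins bind stem-loops of the same kind and also recruit CCR4-NOT. ELAVL1 (HuR) binds AU- and U-rich sequence and mostly protects the transcript, while KHSRP and HNRNPD (AUF1) mostly speed its decay. Several of these factors act as feedback inhibitors of inflammation, and ZFP36 and Regnase-1 are known to limit their own transcripts.

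The heptamer TATTTAT, the DNA form of the core ZFP36 binding site, was counted in the longest annotated 3′ UTR of each gene (GENCODE release 29, GRCh38) and occurred at least 1 time in 7 of the 10 genes. Among 12865 tested genes with a 3′ UTR read in this way, 34.1% held at least 1 and 6.61% at least 3. Their median 3′ UTR was 1295 bases long, while those of the 10 genes ran from 713 bases (ZFP36) to 7507 (RC3H1). Those of ZFP36, ZC3H12A and KHSRP were shorter than that median and the rest were longer. These shares take no account of length. ZFP36, ZFP36L1 and ZFP36L2 held 3 each, ZC3H12C, RC3H2 and ELAVL1 held 5 each and RC3H1 held 2, whereas ZC3H12A, KHSRP and HNRNPD held none. In the 713-base 3′ UTR of ZFP36 all 3 lay within 47 bases, and in the 4904-base 3′ UTR of ELAVL1 all 5 lay within 41 bases. Examples are shown with 10 bases on each side, 5′ to 3′ on the strand of the gene and with TATTTAT in capitals, to show how the element is placed in genes that rose after ADP-heptose and in one that did not pass the test.
ZFP36, site 1, chr19:39409182-39409208, plus strand: atgggcccttTATTTATgacgacttTA
ZFP36, site 3, chr19:39409222-39409248, plus strand: gattttatagTATTTATatatattggg
ZFP36L1, site 2, chr14:68788295-68788321, minus strand: attttgttcaTATTTATcgggatgaca
ZC3H12C, site 2, chr11:110166741-110166767, plus strand: gctttcctgcTATTTATcaaggctggc
ELAVL1, site 3, chr19:7961841-7961867, minus strand: TATTTATaccTATTTATgTATTTATTT
The capitals at the edges of the ZFP36 and ELAVL1 lines belong to neighbouring heptamers, and in ELAVL1 the heptamers stand in a chain in which some share bases.

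After ADP-heptose 4 of the 10 genes rose and none fell. They were ZC3H12A, at 3.97 times its non-stimulated level, ZFP36 at 3.93 times, ZC3H12C at 2.88 times and ZFP36L1 at 1.94 times. In such bulk libraries more cells with a transcript and more of it in each cell cannot be told apart. Across all genes tested, 7.48% rose and 4.42% fell in the same comparison (11.9% in all), with a call made at an adjusted p under 0.05 in edgeR's quasi-likelihood test with Benjamini-Hochberg adjustment. With a change of at least 2-fold as well, as the study required, 3 of the 10 genes and 2.89% of all genes rose. The other 6 genes, both Roquins among them, did not pass the test, and their log2 fold changes lay between −0.35 and 0.07. Of these, 1 (ZFP36L2) was lower by an unadjusted p under 0.05, and DESeq2 called none lower. The median over the 10 genes was 0.01 on the log2 scale, and that over all genes was also 0.01.

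After flagellin 1 of the 10 genes rose and none fell. That gene was ZC3H12A, at 1.66 times its non-stimulated level, in a comparison in which 0.368% of all genes rose and 0.0115% fell (0.379% in all). None of the 10 genes rose by at least 2-fold, as 0.212% of all genes did, and by an unadjusted p under 0.05 2 of the 10 were higher (ZC3H12A and ZC3H12C) and 0 lower. In the direct comparison of the stimuli, 4 of the 10 genes were higher after ADP-heptose than after flagellin and 0 lower, 3 of them by at least 2-fold, against 5.4% of all genes higher (2.06% by at least 2-fold), 2.76% lower and 8.16% in either direction.

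**Figure D1:**
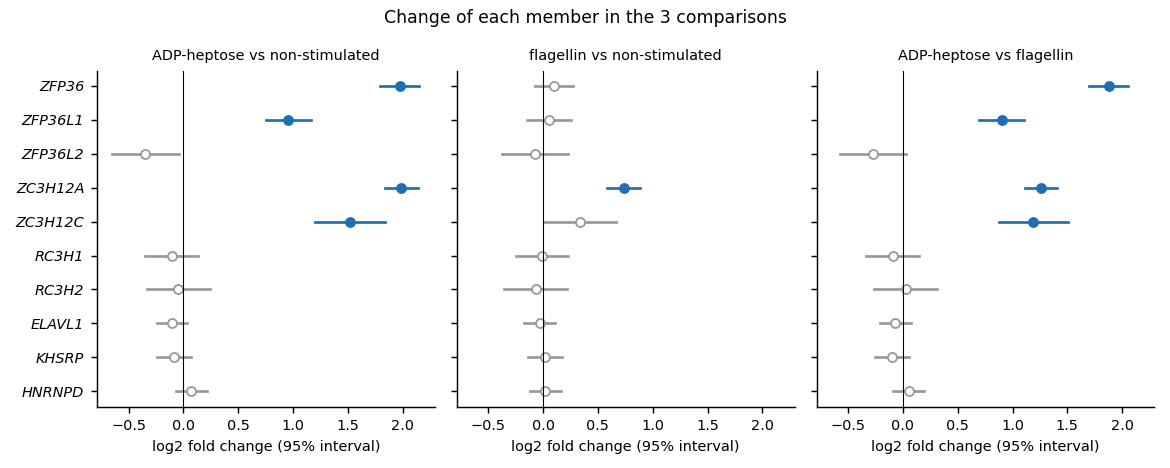
Log2 fold change of the 10 genes (rows) in the 3 comparisons (panels), with 95% intervals as lines. Filled blue points passed edgeR's test at an adjusted p under 0.05 and open grey points did not; ZFP36, ZFP36L1, ZC3H12A and ZC3H12C stand to the right of 0 in both panels with ADP-heptose, and ZC3H12A in the flagellin panel.

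Among the ADP-heptose libraries, the third differed most from the rest. Over 11040 well-expressed genes, the SD of its log2 differences from the other two was 0.36 and 0.37, against 0.11 between those 2 libraries, 0.13 to 0.16 between non-stimulated libraries and 0.14 to 0.15 between flagellin libraries. It was the lowest of its group for 8 of the 10 genes, all but ZC3H12A and HNRNPD. It lay lower than its group mean by 0.43 (log2) for ZFP36L2, 0.39 for RC3H2 and 0.38 for ZC3H12C, and it was closest for ZC3H12A, HNRNPD and ELAVL1, where ELAVL1 had the widest gap of the 3 at −0.05. Total counts were 35040844 to 37537705 in the non-stimulated libraries, 30770448 to 38304035 after flagellin and 50054773 to 58272772 after ADP-heptose. Of 12 epithelial marker genes, 11 had counts in every library, CDX1 being the exception, and their summed level was 8687 to 9103 CPM (counts per 1000000 of the scaled library size) in non-stimulated cells, 8913 to 9288 after flagellin and 9522 to 13388 after ADP-heptose. Among 8 leukocyte markers the T-cell gene CD3E and the B-cell gene MS4A1 were at 0 in every library, and the summed level (381 to 438 CPM over the 9 libraries) was almost wholly LYZ, which some epithelial cells also make. The fibroblast markers summed to 12.5 to 19.1 CPM, with 3 of 6 at 0 in every library, and the endothelial markers to at most 0.19 CPM. Higher after ADP-heptose were the epithelial KRT20 (log2 fold change 0.40), the fibroblast COL1A1 (0.41) and the leukocyte ITGAM, from a mean of 0.05 to 0.82 CPM, and their part in the results was not tested.

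**Figure D2:**
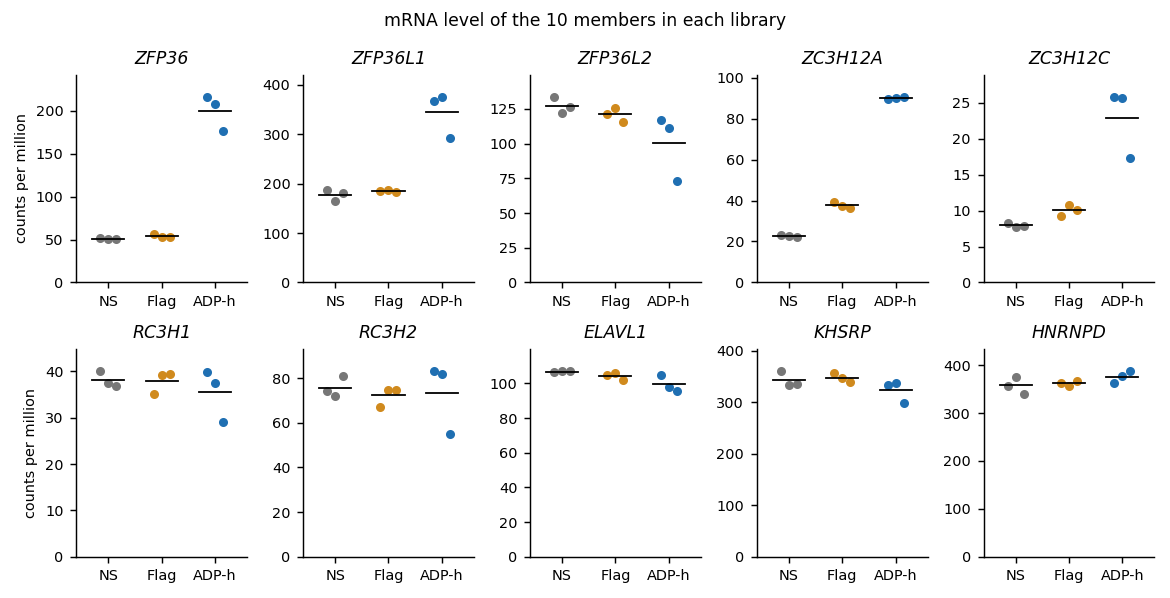
Normalised counts (CPM) of each gene (vertical axes start at 0) in the 3 non-stimulated (NS), 3 flagellin (Flag) and 3 ADP-heptose (ADP-h) libraries, with the group mean as a line. ZFP36, ZFP36L1, ZC3H12A and ZC3H12C stand higher in every ADP-heptose library, and the third ADP-heptose library is the lowest of its group for 8 of the 10 genes, all but ZC3H12A and HNRNPD.

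ZFP36 (tristetraprolin, ENSG00000128016, chr19:39406813-39409412, plus strand) is the founding member of the zinc finger family and an immediate-early gene. Its normalised counts in CPM were 51.7, 50.7 and 50.4 in non-stimulated cells, 56.8, 53.4 and 53.2 after flagellin and 216, 207 and 177 after ADP-heptose. All 3 ADP-heptose libraries lay far above the other 6, and the flagellin libraries lay just above the non-stimulated ones without overlap. After ADP-heptose the log2 fold change was 1.97 ± 0.08 (SE, n = 3 per group, adjusted p = 8.16e-09 in edgeR), which placed ZFP36 at rank 47 of all genes by p. After flagellin it was 0.10, with a 95% interval of −0.08 to 0.27 (adjusted p = 1), so a rise of more than 0.27 on the log2 scale lies outside the interval. ZFP36 was also higher after ADP-heptose than after flagellin, by 1.88 ± 0.08 (adjusted p = 1.97e-08).

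ZFP36L1 (ENSG00000185650, chr14:68787660-68796253, minus strand) encodes a paralog that binds the same element and is expressed in many tissues without stimulation. Its CPM were 187, 165 and 181 in non-stimulated cells, 184, 188 and 182 after flagellin and 367, 375 and 292 after ADP-heptose. The ADP-heptose libraries did not overlap with the others, whereas the flagellin and non-stimulated libraries did. The log2 fold change after ADP-heptose was 0.96 ± 0.09 (edgeR adjusted p = 2.01e-05), just short of 2-fold with the third library and 1.07 without it. After flagellin it was 0.05 (95% interval −0.15 to 0.26).

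ZFP36L2 (ENSG00000152518, chr2:43222402-43226609, minus strand) is the third paralog and went the other way. Its CPM were 134, 122 and 126 in non-stimulated cells, 122, 126 and 116 after flagellin and 117, 111 and 72.8 after ADP-heptose. Each ADP-heptose library lay below each non-stimulated library, with the third well below the rest, while flagellin and non-stimulated libraries overlapped. The log2 fold change after ADP-heptose was −0.35, with a 95% interval of −0.65 to −0.04, and it did not pass the test over all genes (edgeR adjusted p = 0.14). Without the third ADP-heptose library it was smaller, at −0.16, and passed (adjusted p = 0.0298). With all libraries ZFP36L2 was therefore not called in the main fit, but it was called when no filter on low counts was used (−0.35, edgeR adjusted p = 0.00201). Its sign was negative with and without the third ADP-heptose library.

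Divided by gene length, the make-up of the ZFP36 family differed between the groups. The level per kilobase is the CPM divided by the summed exon length of the gene, which allows genes to be set beside each other. On that scale ZFP36 made up 26.9% ± 0.916 (SD, n = 3) of the family's summed level in non-stimulated cells, 28.3% ± 0.897 after flagellin and 51.6% ± 1.77 after ADP-heptose. ZFP36L2 made up 36.6% ± 0.29, 34.2% ± 0.782 and 13.9% ± 1.64 in the same order, and ZFP36L1 made up 36.5%, 37.4% and 34.5%. ZFP36 shares ran from 50.1% to 53.5% in the ADP-heptose libraries and from 26.2% to 29.2% in the other 6, with no overlap. The summed level of the family was 94.3 ± 3.97 CPM per kilobase in non-stimulated cells, 95.6 ± 2.22 after flagellin and 193 ± 25.4 after ADP-heptose. ZFP36L2 alone stood at 34.5, 32.7 and 27.1 CPM per kilobase in the same order, and its change after ADP-heptose did not pass the test. Its smaller share therefore goes with a larger sum. With the longest transcript as the length, the ZFP36 share was 24.0% in non-stimulated cells and 45.4% after ADP-heptose, and that of ZFP36L1 was then 46.9% and 43.7%.

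**Figure D3:**
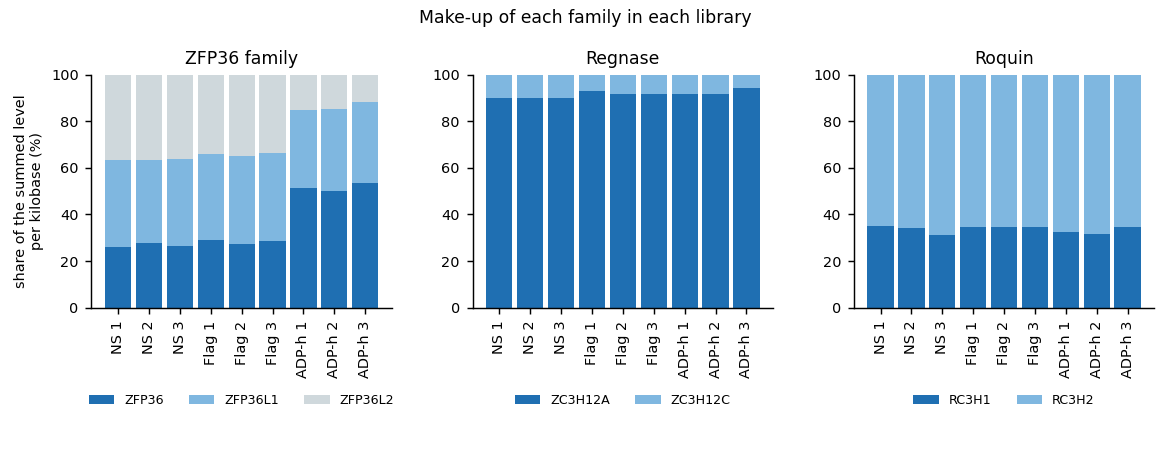
Share (%) of each gene in the summed level per kilobase of its family, in each of the 9 libraries (NS, non-stimulated; Flag, flagellin; ADP-h, ADP-heptose; numbers are replicates). ZFP36 takes 50.1% to 53.5% of the ZFP36 family in the ADP-heptose libraries and at most 29.2% in the others, while the Regnase and Roquin bars differ little between groups.

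ZC3H12A (ENSG00000163874, chr1:37474552-37484379, plus strand), the gene of Regnase-1, rose after both stimuli. Its CPM were 23.3, 22.5 and 22.2 in non-stimulated cells, 39.4, 37.4 and 36.4 after flagellin and 89.5, 90.2 and 90.6 after ADP-heptose. The 3 groups were fully separated, and the ADP-heptose libraries, the third included, had a coefficient of variation of 0.613%. The log2 fold change was 0.73 ± 0.07 after flagellin (edgeR adjusted p = 1.56e-04) and 1.99 ± 0.07 after ADP-heptose (1.28e-09). The difference between the stimuli was 1.26 ± 0.07 (9.60e-08) in the direct test. By p, ZC3H12A ranked 19 among all genes after flagellin and 29 after ADP-heptose.

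ZC3H12C (ENSG00000149289, chr11:110093361-110171841, plus strand) encodes Regnase-3, a related endonuclease. It was the least abundant of the 10 genes, with 278 to 1444 raw counts per library. Its CPM were 8.29, 7.74 and 7.86 in non-stimulated cells, 9.26, 10.8 and 10.1 after flagellin and 25.8, 25.6 and 17.3 after ADP-heptose. The groups were separated in that order, and the third ADP-heptose library lay between the flagellin libraries and the other 2 of its group. The log2 fold change after ADP-heptose was 1.52 ± 0.15 (edgeR adjusted p = 1.69e-05) and without that library 1.69. After flagellin it was 0.33 with a 95% interval of 0.008 to 0.66, and it did not pass the test over all genes (adjusted p = 1). Levels were 1.19 ± 0.14 (log2) higher after ADP-heptose than after flagellin (1.69e-04).

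Per kilobase, the pair of Regnase genes summed to 8.09 ± 0.212 CPM in non-stimulated cells, 13.1 ± 0.442 after flagellin and 31.2 ± 0.371 after ADP-heptose. ZC3H12A made up 89.9% of that sum in non-stimulated cells, 92.1% after flagellin and 92.5% after ADP-heptose. The related genes ZC3H12B and N4BP1, which also encode proteins with the Regnase-type nuclease fold, did not pass the test, at −0.44 and −0.11 (log2 fold change) after ADP-heptose.

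The Roquin genes did not pass the test in any comparison with all 9 libraries. RC3H1 (ENSG00000135870, chr1:173931214-174022297, minus strand) had CPM of 40.1, 37.6 and 36.9 in non-stimulated cells, 35.1, 39.2 and 39.4 after flagellin and 39.9, 37.4 and 28.985 after ADP-heptose. RC3H2 (ENSG00000056586, chr9:122844556-122905341, minus strand) had 74.2, 72.2 and 80.9, then 67.2, 74.9 and 74.7, and then 83.2, 82.0 and 55.2. For both genes the 3 groups overlapped, and the lowest value of all was that of the third ADP-heptose library. The log2 fold changes after ADP-heptose were −0.11 (95% interval −0.35 to 0.13) for RC3H1 and −0.04 (−0.33 to 0.24) for RC3H2. Without the third ADP-heptose library they were 0.02 and 0.13, and RC3H2 was then higher than after flagellin by 0.20 (edgeR adjusted p = 0.0131), a call that rests on leaving that library out. Per kilobase the pair summed to 9.88, 9.55 and 9.44 CPM in non-stimulated, flagellin and ADP-heptose cells, with RC3H2 at 66.4%, 65.5% and 67.2% of the sum.

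The remaining AU-rich element binders differed little between the groups. ELAVL1 (ENSG00000066044, chr19:7958579-8005659, minus strand), the stabilising member, had CPM of 106, 107 and 107 in non-stimulated cells, 105, 106 and 102 after flagellin and 105, 97.9 and 95.7 after ADP-heptose. Its non-stimulated libraries lay above all 6 others, by small margins, and the log2 fold changes were −0.10 (95% interval −0.24 to 0.04) after ADP-heptose and −0.03 (−0.17 to 0.10) after flagellin. KHSRP (ENSG00000088247, chr19:6413348-6424794, minus strand) had 360, 333 and 334, then 357, 346 and 338, and then 333, 338 and 299 CPM. Its log2 fold change after ADP-heptose was −0.08 (−0.24 to 0.07), and its ADP-heptose libraries overlapped with the non-stimulated ones and lay below those of flagellin. HNRNPD (ENSG00000138668, chr4:82352498-82374503, minus strand) had 356, 376 and 341, then 364, 356 and 368, and then 363, 378 and 387 CPM. Its groups overlapped, with a log2 fold change of 0.07 (−0.07 to 0.22) after ADP-heptose and 0.02 (−0.12 to 0.16) after flagellin. The intervals of these 3 genes leave room for changes of at most 0.26 on the log2 scale in any comparison. An antisense gene on the opposite strand of HNRNPD, HNRNPD-DT, had 6 to 23 counts per library, at most 0.165% of those of HNRNPD.

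Counting groups without overlap gives a looser picture of the same values. After ADP-heptose 4 genes lay wholly above the non-stimulated libraries and 2, ZFP36L2 and ELAVL1, wholly below, while 15.4% of all genes lay above and 14.7% below. After flagellin 3 genes, ZFP36, ZC3H12A and ZC3H12C, lay wholly above and ELAVL1 wholly below, with 7.66% and 5.19% of all genes as the background. Between the stimuli 4 genes lay wholly higher after ADP-heptose and KHSRP wholly lower, against 14.2% and 12.8% of all genes.

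Set side by side per kilobase, the order of the 10 genes differed between the groups. In non-stimulated cells KHSRP led with 75.0 ± 3.39 CPM per kilobase (SD, n = 3), followed by HNRNPD with 51.2 ± 2.54, ZFP36L2 with 34.5 ± 1.58, ZFP36L1 with 34.4 ± 2.22, ZFP36 with 25.3 ± 0.332 and ELAVL1 with 15.3 ± 0.0557 on the same scale. ZC3H12A (7.27 ± 0.185 CPM per kilobase), RC3H2 (6.56 ± 0.394), RC3H1 (3.32 ± 0.146) and ZC3H12C (0.819 ± 0.0299) came last. Of these neighbours, ZFP36L2 and ZFP36L1 did not differ beyond their spread, which holds for summed exon length only. With the longest transcript as the length ZFP36L1 stood at 55.7 and ZFP36L2 at 34.5 CPM per kilobase, and ZC3H12A and RC3H2 came close, at 8.34 and 8.19. On the summed exon length the order after flagellin was the same save for ZFP36L1, which stood before ZFP36L2, with 35.8 and 32.7 CPM per kilobase.

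After ADP-heptose ZFP36 led on the per-kilobase scale with 99.5 ± 10.3 CPM, ahead of KHSRP with 70.8 ± 4.66, ZFP36L1 with 66.8 ± 8.89 and HNRNPD with 53.8 ± 1.78. ZC3H12A reached 28.9 ± 0.177 CPM per kilobase, beside ZFP36L2 with 27.1 ± 6.47, and thus stood above ELAVL1 with 14.3 ± 0.681. KHSRP and ZFP36L1 did not differ beyond their spread, nor did ZC3H12A and ZFP36L2. With the longest transcript as the length, ZFP36 (112 CPM per kilobase), ZFP36L1 (108) and KHSRP (108) lay together at the top, so the lead of ZFP36 depends on which length is used. That length was chosen after seeing the data.

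For the pair of genes with the largest change, the sequence before the RefSeq start site (GRCh38.p14) is shown, since both rose together after ADP-heptose. Of the 10 genes, 8 had an entry in the RefSeq promoter table, which covers 250 bases before to 50 after each start site. The stretches below run 5′ to 3′ on the plus strand, 121 bases from position −160 to −40 for ZFP36 and 170 bases from −170 to −1 for ZC3H12A, counted from the start site. Capitals mark matches to the GC box GGGCGG on either strand and to the TATA box TATAAA.
ZFP36, chr19:39406687-39406807: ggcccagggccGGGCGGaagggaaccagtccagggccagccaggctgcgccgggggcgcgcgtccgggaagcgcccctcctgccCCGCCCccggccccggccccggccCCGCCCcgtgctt
ZC3H12A, chr1:37474410-37474579: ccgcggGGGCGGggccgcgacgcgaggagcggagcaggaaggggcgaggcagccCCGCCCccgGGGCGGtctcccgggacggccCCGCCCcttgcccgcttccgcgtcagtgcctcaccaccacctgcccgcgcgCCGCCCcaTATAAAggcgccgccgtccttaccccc
The whole ZFP36 window held 3 GC boxes and that of ZC3H12A held 5, together with a TATAAA at −27. Only exact TATAAA was scored, and between the stretch shown and the start site ZFP36 held the near match tataagta. Among 35116 promoters of that length, 45.0% held a GC box and 11.5% a TATAAA on either strand. Neither window held a match to the NF-κB decamer, which 5.91% of promoters held, to the AP-1 heptamer TGANTCA, which 7.71% held, or to the CArG box, which 1.29% held. Of the members with an entry, RC3H2, which did not pass the test, was the one with the NF-κB decamer. These matches are letters in a window and say nothing of binding.

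The genes of the decay machinery that passed the test in the main fit were all on the deadenylation list. Those with the largest changes belong to the BTG family. Of 22 tested genes of the CCR4-NOT, PAN and PARN deadenylation machinery, 3 rose and 1 fell after ADP-heptose, and the median log2 fold change was −0.005 beside 0.01 for all genes. That is 4 of 22, where 11.9% of all genes were called. Of the 22, 7 had an unadjusted p under 0.05, and DESeq2 called 4, where it called 15.1% of all genes. The 3 that rose were BTG3 (1.37 ± 0.10, edgeR adjusted p = 1.13e-06), BTG2 (1.08 ± 0.09, 6.56e-06) and BTG1 (0.57 ± 0.07, 9.65e-05), whose family of antiproliferative proteins includes adaptors that bind the CNOT7 and CNOT8 deadenylases. The gene that fell was TOB1, a related adaptor (−0.27 ± 0.06, 0.0155). The scaffold subunit CNOT1 and the catalytic subunit CNOT7 had log2 fold changes of −0.15 and −0.16 and did not pass. None of 21 genes of decapping and 5′ to 3′ decay and none of 18 genes of the exosome and its cofactors passed in edgeR after ADP-heptose, where 1 and 3 of them had an unadjusted p under 0.05 and DESeq2 called 1 and 0. Without the third ADP-heptose library 7 deadenylation genes, 3 decapping genes and 3 exosome genes passed, in a fit that called 18.3% of all genes. With offsets for exon length and GC content 7, 3 and 1 passed, where 17.7% of all genes were called. After flagellin no gene of these 3 lists passed in edgeR or DESeq2, and 1, 0 and 0 had an unadjusted p under 0.05.

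Among 13 tested relatives of the 10 genes, 1 rose after ADP-heptose, where 7.48% of all genes rose. It was ARID5A (0.62 ± 0.17, edgeR adjusted p = 0.0347), which is known to protect IL6 and other transcripts from Regnase-1. The call was lost under 7 of 17 alternatives, namely library totals, only the 6 libraries compared and 5 fits with 1 library left out (any non-stimulated library, or the first or the third flagellin library), and without the third ADP-heptose library 2 of the 13 passed. None passed after flagellin in edgeR or DESeq2, and 0 had an unadjusted p under 0.05. Of 28 tested regulators of the 10 proteins, 3 rose and 1 fell after ADP-heptose, where 7.48% of all genes rose and 4.42% fell. In that comparison 8 had an unadjusted p under 0.05, and DESeq2 called 6, where it called 15.1% of all genes. None passed after flagellin in edgeR, where 2 had an unadjusted p under 0.05 and DESeq2 called 1. The genes that rose were MAP2K3, an activating kinase of the p38 pathway that controls ZFP36 phosphorylation (1.28 ± 0.08, 3.11e-07), SFN, the 14-3-3 sigma protein (0.86 ± 0.14, 0.00175), and BCL10, a partner of the protease MALT1 that cleaves Regnase-1 and the Roquins (0.82 ± 0.07, 9.20e-06). MAP2K6, the other p38 kinase kinase of the list, fell (−0.45 ± 0.13, 0.0430). MALT1 itself had a log2 fold change of −0.05 and did not pass. Without the third ADP-heptose library 8 regulators passed after ADP-heptose and 1 after flagellin. That fit, also the source of the 2 relatives above, called 18.3% of all genes after ADP-heptose and 0.952% after flagellin.

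The transcripts listed as those these factors are known to act on were largely higher, on lists written with earlier results of these data known. Of 29 tested transcripts known as targets of ZFP36 or as carriers of AU-rich elements, a list that holds ZFP36 itself, 25 rose and none fell after ADP-heptose (median of the log2 fold changes 3.42), while 12 rose and none fell after flagellin (median 0.73). Of all genes, 7.48% rose and 4.42% fell after ADP-heptose (median 0.009). After flagellin 0.368% of all genes rose and 0.0115% fell (median 0.005). After ADP-heptose the chemokine CCL20 rose by 8.01 ± 0.10 on the log2 scale (edgeR adjusted p = 1.91e-13), from 1.78 to 460 CPM, and the neutrophil chemokine CXCL8 by 7.68 ± 0.16 (9.50e-12), from 4.75 to 975 CPM. After flagellin the same transcripts rose by 4.74 ± 0.09 and 2.49 ± 0.14. TNF and CCL2 were at 0 counts in every non-stimulated library, so no fold is given for them, and with both placed at a floor of 3 counts per library the median was 3.42 after ADP-heptose and 0.68 after flagellin. CCL2 and IL1B averaged 0 and 0.05 CPM in non-stimulated cells, 0.08 and 0.15 after flagellin and 0.94 and 0.52 after ADP-heptose. Genes this low could enter the test through the ADP-heptose libraries and could hardly be counted as lower, and the counts given here keep them. By an unadjusted p under 0.05, 25 passed after ADP-heptose and 18 after flagellin in either direction. DESeq2 called 25 and 12, where it called 15.1% and 0.609% of all genes. The counts were 26 and 14 without the third ADP-heptose library, in a fit that called 18.3% and 0.952% of all genes. Higher after ADP-heptose than after flagellin were 24 of the 29, and 1, MYC, was lower (−0.24 ± 0.07, 0.0463). Of all genes, 5.4% were higher and 2.76% lower in that comparison. Many of these genes are also known as NF-κB targets, and whether their transcripts decayed at another rate was not measured.

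Of 23 tested transcripts known as targets of Regnase-1 or the Roquins, which include ZC3H12A itself and share several chemokine genes with the previous list, 19 rose and none fell after ADP-heptose (median 2.63), and 12 rose and none fell after flagellin (median 0.72). Beside these counts, 7.48% of all genes rose after ADP-heptose (median 0.009) and 0.368% after flagellin (median 0.005). The chemokines CXCL2 and CXCL1 rose by 7.16 ± 0.20 and 6.47 ± 0.09 after ADP-heptose and by 3.78 ± 0.21 and 3.24 ± 0.08 after flagellin (edgeR adjusted p of at most 1.24e-06). With TNF and TNFRSF9, which had at most 2 counts in any non-stimulated library, at the floor of 3 counts the medians were again 2.63 and 0.72. TNFRSF9 and CD274 averaged 0.02 and 0.16 CPM in non-stimulated cells and 3.12 and 0.69 after ADP-heptose. The counts keep them as well, although genes this low could hardly be counted as lower. By an unadjusted p under 0.05, 20 passed after ADP-heptose and 14 after flagellin in either direction. DESeq2 called 19 and 12, where it called 15.1% and 0.609% of all genes. Leaving out the third ADP-heptose library gave 20 and 13, where 18.3% and 0.952% of all genes were called. TFRC, the transferrin receptor, and STAT3 stood at −0.05 and 0.13 (log2 fold change) after ADP-heptose and did not pass. Both target lists were written from general knowledge with earlier results of these data known, so that their counts do not stand as independent evidence of a direction.

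**Figure D4:**
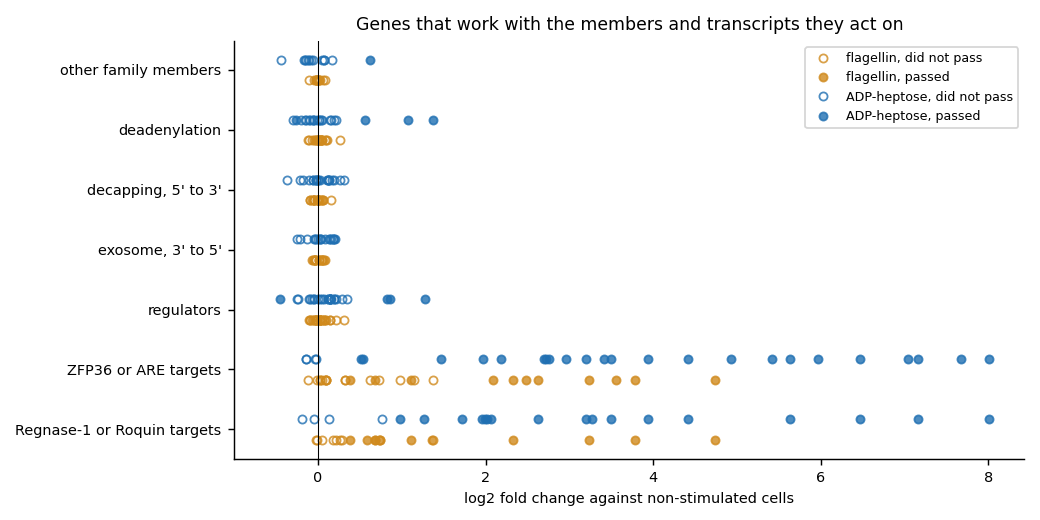
Log2 fold change against non-stimulated cells of each tested gene of 7 lists (rows) after ADP-heptose (blue) and flagellin (orange), filled where the gene passed edgeR's test at an adjusted p under 0.05. The rows of decay machinery gather around 0, with medians between −0.01 and 0.03, and the target rows spread to 8.01; genes with at most 3 counts in every non-stimulated library are not drawn.

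Grouped by the number of TATTTAT heptamers in the 3′ UTR, genes with 4 or more were called higher more often than genes with none, with an uneven order in between. After ADP-heptose 8% of 8477 genes without a heptamer rose, as did 8.61% of 2520 genes with 1, 11% of 1017 with 2, 8.51% of 435 with 3 and 11.3% of 416 with 4 or more. A rise of at least 2-fold was found for 2.56%, 2.86%, 2.75%, 3.68% and 6.25% of them. The share of genes that fell was also larger with heptamers, at 4.01% without and 8.17% with 4 or more, and the median log2 fold change was 0.05 without and −0.10 with 4 or more. The length of the 3′ UTR moved with the heptamers, from a median of 869 bases without to 5106 bases with 4 or more. Among genes whose 3′ UTR was 1000 to under 2000 bases long, 8.56% of 2080 without a heptamer rose, and 28.9% of the 38 with 4 or more did (11 genes). Without the third ADP-heptose library the shares over all lengths were 11.8% without a heptamer and 20.4% with 4 or more. These shares are a description, since genes are not replicates, and the part of 3′ UTR length in them was not tested beyond that window. After flagellin the shares that rose were 0.366% without a heptamer and 1.44% with 4 or more, and 1.01% and 3.36% without the third ADP-heptose library.

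**Figure D5:**
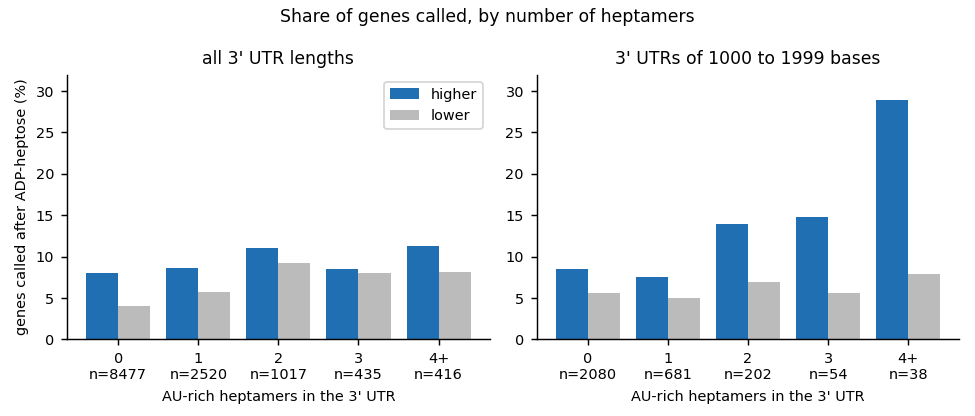
Share (%) of tested genes called higher (blue) or lower (grey) after ADP-heptose against non-stimulated cells, by the number of TATTTAT heptamers in the longest 3′ UTR, over all 3′ UTR lengths (left) and for 3′ UTRs of 1000 to under 2000 bases (right). Numbers of genes stand under the bars; the blue bars run from 8% to 11.3% on the left and from 7.49% to 28.9% on the right, where the last bar rests on 38 genes.

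Among the 10 genes themselves the heptamer count did not sort those that rose from the rest. ZFP36 and ZFP36L1, with 3 heptamers each, and ZC3H12C, with 5, rose after ADP-heptose, but ZC3H12A rose with none, while ZFP36L2 with 3, ELAVL1 and RC3H2 with 5 each and RC3H1 with 2 did not pass the test.

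Across the 9 libraries, the genes whose log2 CPM followed that of ZFP36 most closely, out of 12168 candidates, were EPHA2, BHLHE40, TRIB1, RHOB and KDM6B, with Pearson correlations of 0.997 to 0.998. Each had a fitted log2 fold change between 1.25 and 2.92 after ADP-heptose and between 0.03 and 0.20 after flagellin. For ZC3H12A they were SDC4, NFKB2, SOD2, CXCL8 and TRIM31, with correlations of 0.996 to 0.998, log2 fold changes between 1.92 and 7.68 after ADP-heptose and between 0.66 and 2.49 after flagellin. The points are the same 9 libraries in 3 groups, so the correlations mainly restate the group means and are given as a description.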

How the data were processed

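Per the labels and the study's methods, the authors enriched poly(A) RNA, sequenced paired 150-base reads, used HISAT2 to align them and featureCounts to assign them to genes. The values deposited are raw counts, with a column for each library. Versions, genome build, annotation, strandedness and the handling of multi-mapping reads are not given in the sources used here, so reads shared between paralogs may be split or lost. The table has 62972 lines, and 232 identifiers listed more than once with identical counts were kept once. No 2 libraries agreed within sampling noise. Depth was 30770448 to 58272772 counts per library.

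The tests were run in R 4.3.3 with edgeR 4.0.16 (TMM, filterByExpr, robust quasi-likelihood fit and F test) in 1 fit of all 9 libraries with group as the sole term. P-values were adjusted (Benjamini-Hochberg) over all 17412 genes tested, and a gene was called at an adjusted p under 0.05. CPM are counts per 1000000 of the TMM-scaled library size. The square root of the common dispersion was 0.109, and raw counts of the 10 genes were at least 278 per library. Exon lengths, 3′ UTRs and positions came from GENCODE release 29 (GRCh38), which holds 92.9% of the identifiers, and promoters from RefSeq (GRCh38.p14). The script was tested on simulated data. Python 3.11.15 and matplotlib 3.10.9 made the figures.

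The 10 genes and all lists were chosen with earlier results of these data known. Named outside the 10 are, per list, at most 4 called genes with the largest change in a comparison, and the 5 genes nearest in pattern to ZFP36 and ZC3H12A among those whose log2 CPM averaged 1 or more. The subunits, relatives and targets named as not passing (ZC3H12B, N4BP1, CNOT1, CNOT7, MALT1, TFRC and STAT3) were chosen after their values were seen. The alternatives tried, 17 in all, began with DESeq2 1.42.0 size factors, library totals, the DESeq2 test, no filter and a mean of at least 10 counts. They went on with a fit of only the 6 libraries compared, a replicate block and offsets for exon length and GC content (splines with 4 degrees of freedom). Each library was also left out in turn. A 2-fold limit was applied apart from these 17.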

Additional observations from a re-analysis of the deposited data

How the results depend on the processing

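ZFP36, ZFP36L1, ZC3H12A and ZC3H12C passed the threshold against non-stimulated cells and against flagellin under all 17 alternatives, with log2 fold changes after ADP-heptose of 1.80 to 2.06, 0.83 to 1.07, 1.81 to 2.01 and 1.40 to 1.69. ZC3H12A passed after flagellin under all 17 (0.67 to 0.75). The 2-fold limit is not among these 17. Under it ZFP36L1 passed neither against non-stimulated cells (0.96) nor against flagellin (0.90), and ZC3H12A did not pass after flagellin (0.73). ZFP36L2 passed after ADP-heptose under 2, no filter (−0.35, adjusted p = 0.00201) and without ADP-heptose replicate 3 (−0.16, 0.0298), and against flagellin under no filter (−0.27, 0.0480). ELAVL1 passed after ADP-heptose with library totals (−0.24, 0.0457), a setting under which the median of all genes is −0.13, and RC3H2 against flagellin without ADP-heptose replicate 3 (0.20, 0.0131). Leaving out 1 library at a time, 4 to 5 of the 10 genes were called after ADP-heptose, 1 in every case after flagellin and 4 to 5 between the stimuli. The cause of these changes was not tested.

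Over all genes the counts moved more. With the 2-fold limit they were 586 after ADP-heptose, 39 after flagellin (none of the 10 genes, 0) and 409 between the stimuli. After flagellin 66 genes were called, against 106 with the DESeq2 test, 124 with no filter and 143 with 6 libraries. Between the stimuli offsets gave 2356 in place of 1421. Leaving out 1 library gave 1317 to 3288 after ADP-heptose (2072 with all), 38 to 171 after flagellin and 912 to 2721 between the stimuli, with each of the highest counts without ADP-heptose replicate 3.

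Signs turned for small values, none of which passed with the turned sign. With library totals HNRNPD was −0.0634 after ADP-heptose and −0.0680 against flagellin, and RC3H2 −0.0859 against flagellin. With offsets RC3H2 was 0.0376 after ADP-heptose, and RC3H1 0.0204 and KHSRP −0.0385 after flagellin. With 1 library left out, RC3H1 ranged from −0.208 to 0.0221 and RC3H2 from −0.150 to 0.128 after ADP-heptose, RC3H1 from −0.0464 to 0.0353, KHSRP from −0.00706 to 0.0570 and HNRNPD from −0.0131 to 0.0577 after flagellin, and RC3H1 from −0.190 to 0.0415 and RC3H2 from −0.0735 to 0.205 against flagellin.

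Samples with the same replicate number did not steadily deviate together: correlations were 0.29, −0.45 and −0.29 for ADP-heptose and non-stimulated cells and −0.04, −0.05 and 0.06 for flagellin and non-stimulated cells. For ADP-heptose and flagellin they were −0.295, 0.149 and −0.217. With unlike numbers they ran from −0.461 to 0.498 for ADP-heptose and non-stimulated cells. Deviations within a group sum to 0, so these values are not independent and cannot show whether groups shared an experiment. With the number as a replicate block 4, 1 and 4 of the 10 genes were called after ADP-heptose, after flagellin and between the stimuli, and 1587, 46 and 1111 of all genes.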
